A study of Mus musculus with 3 samples.

Results

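Expression of 9 genes of the complement system was followed across the leukocytes and fibroblasts of the mouse stomach muscle: *C1qa*, *C1qb* and *C1qc*, the component genes *C2*, *C3* and *C4b*, and the receptor genes *Vsig4*, *C3ar1* and *C5ar1*. They were taken by symbol and make up 9 of the 31053 genes in the count matrices. The samples are 3 libraries, NonDiabetic replicates 1 to 3. They were made from cells with CD45, the common leukocyte antigen, that a flow cytometer sorted from digested muscle layers of stomachs of female C57bl/6 mice. All 3 belong to 1 group, so conditions could not be compared, and the comparisons are between cell classes of the same libraries. No source used here gives the age of the mice or says whether each library came from its own animals. The p-values then cover the spread among 3 libraries only, or among 2 where a class had too few cells in 1 library. That spread may be technical. The question of the series is which macrophages live in this muscle and what their origin may be.

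Complement is a cascade of proteins that tags microbes and dying cells and draws in leukocytes. In the classical pathway the recognition molecule C1q, built from A, B and C chains, binds its target, after which C4 and C2 are cut to form the enzyme that cleaves C3. Fragments of C3 bound to a surface are taken up through receptors such as the VSIG4 protein (CRIg) of resident macrophages, while the small fragments C3a and C5a signal through the C3AR1 and C5AR1 receptors. The liver supplies most plasma C3 and C4, and tissue macrophages are a main source of C1q.

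The 3 chain genes of C1q lie together on chromosome 4 in the mouse build GRCm38, all on the minus strand: *C1qb* at chr4:136880129-136886187, *C1qc* at chr4:136889804-136893065 and *C1qa* at chr4:136895917-136898803. *C2* (chr17:34862604-34898265), *C4b* (chr17:34728380-34743882) and *C3* (chr17:57203970-57228136) lie on chromosome 17, and *C3ar1*, *C5ar1* and *Vsig4* on chromosomes 6, 7 and X. A promoter window from RefSeq (GRCm38.p6), running from 250 bases before to 50 bases after the start of the gene, was found for 6 of the 9 genes. The windows of *C1qb* (chr4:136886151-136886450), *C1qc* (chr4:136892865-136893164) and *C3* (chr17:57228087-57228386) are shown, because the C1q chains had their highest levels in macrophages and *C3* in fibroblasts. They are written 5′ to 3′ on the minus strand, and capitals mark GAGGAA, core letters bound by the myeloid factor PU.1, or TGCTGA, a part of the site of MAF factors, on either strand (TTCCTC and TCAGCA on the opposite one).
C1qb: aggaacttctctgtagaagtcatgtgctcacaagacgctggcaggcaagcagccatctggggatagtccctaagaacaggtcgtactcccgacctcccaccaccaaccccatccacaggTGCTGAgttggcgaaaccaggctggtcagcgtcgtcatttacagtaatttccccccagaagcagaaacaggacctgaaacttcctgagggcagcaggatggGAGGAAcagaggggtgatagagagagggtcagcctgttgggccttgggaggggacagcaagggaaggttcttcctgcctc
C1qc: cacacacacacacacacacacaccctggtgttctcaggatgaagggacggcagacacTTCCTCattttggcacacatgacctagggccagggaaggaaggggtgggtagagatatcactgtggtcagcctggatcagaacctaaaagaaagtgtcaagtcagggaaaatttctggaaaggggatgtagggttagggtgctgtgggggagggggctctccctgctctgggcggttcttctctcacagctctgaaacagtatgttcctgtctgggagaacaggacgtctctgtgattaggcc
C3: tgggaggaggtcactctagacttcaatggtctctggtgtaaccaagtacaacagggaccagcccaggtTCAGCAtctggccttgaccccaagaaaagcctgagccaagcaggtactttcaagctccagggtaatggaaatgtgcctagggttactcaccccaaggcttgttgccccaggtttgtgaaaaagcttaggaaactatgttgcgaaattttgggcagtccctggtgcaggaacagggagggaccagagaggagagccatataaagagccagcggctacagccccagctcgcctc
GAGGAA was found in the windows of *C1qb*, *C1qc* and, in 2 places, *Vsig4*, and not in the letters of those of *C3*, *C3ar1* and *C5ar1*. TGCTGA was found in the *C1qb* and *C3* windows shown, and also in those of *C3ar1*, *C5ar1* and *Vsig4*. Of all 32851 promoter windows of this length, 28.3% hold GAGGAA and 19.5% hold TGCTGA on either strand, so both are common. CCAAT and TATAAA were also searched and are held by 37.4% and 13.6% of the windows; *C3* and *C3ar1* hold TATAAA and *C5ar1* holds CCAAT. The motifs searched do not overlap in the windows shown, and a match describes the letters only.

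Cells were gated on marker genes that included none of the complement genes. The libraries held 5735 barcodes and 31131076 unique molecular identifiers (UMIs, 1 per captured RNA molecule). Of the barcodes, 3430 cells had at least 1000 UMIs and at most 15% mitochondrial UMIs: 522, 1692 and 1216 in replicates 1, 2 and 3, with medians of 9182, 5700 and 7502 UMIs. Among them 2000 were macrophages, 300 conventional dendritic cells, 417 group 2 innate lymphoid cells (ILC2, lymphocytes of tissues), 46 monocyte-like cells, 52 T or NK cells, 46 mast cells and 60 fibroblasts, and 449 stayed unassigned. In the gated macrophages *Mrc1* was found in 94.95% of cells, *Csf1r* in 89.15% and the CD45 gene *Ptprc* in 80.2%. The fibroblasts carried *Lum* in 100% and *Ptprc* in 6.667%, so the cells that came through the CD45 sort as fibroblasts mostly lacked its RNA. Replicates 2 and 3 shared 33 barcodes, replicates 1 and 3 shared 1, and replicates 1 and 2 shared 0. Of the kept cells 38 carried such a barcode.

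Macrophages had by far the highest level of the 3 C1q chains among the classes with at least 5 cells in every library. Levels are CPM, the counts of a gene scaled to the same total of UMIs, with the cells of a class summed within a library. *C1qa* stood at 3030, 3352 and 4430 CPM in the macrophages of replicates 1, 2 and 3, with a mean of 3604 ± 733 (SD, n = 3). *C1qb* stood at 2372, 3321 and 4273 CPM and *C1qc* at 2403, 2518 and 3266 CPM. Replicate 3 was the highest for all 3 chains, and the highest library of the other classes plotted was *C1qb* at 392 CPM in monocyte-like cells. In classes with fewer than 5 cells per library, 2 neutrophils of replicate 3 had *C1qa* at 2937 CPM from 48 counts. They had *C1qb* at 3304 CPM and *C1qc* at 4283 CPM, the latter above the macrophages of that library. These came from 54 and 70 counts, for each gene in 1 of the 2 cells.

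At equal depth, with every cell thinned to 1000 UMIs, *C1qa* was found in 88.7%, 82.8% and 92.3% of macrophages in replicates 1, 2 and 3. The shares were 77.5%, 85.7% and 89.6% for *C1qb* and 85.3%, 78.9% and 89.0% for *C1qc*. All 3 chains were found in the same thinned cell in 69.2% ± 9.51 of macrophages (SD, n = 3), and none of the 3 in 3.65% ± 1.11. Without thinning, *C1qa* was found in 94.4% ± 3.61 of macrophages. C1q RNA was thus detected in nearly every macrophage and was spread over them: the 5% of macrophages with the most *C1qa* held 14.7%, 22.0% and 17.0% of its counts.

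In ILC2, which are not known to make C1q, *C1qa* stood at 12.8, 51.5 and 37.3 CPM and was found in 0.926%, 5.71% and 5.22% of thinned cells. This was 0.899% of the macrophage level when libraries were pooled, and the values for *C1qb* and *C1qc* were 0.823% and 1.10%. Another 10 macrophage genes that were not used for gating (*Selenop*, *Lyz2*, *Lgmn* and others) stood in ILC2 at 1.37% to 2.97% of their macrophage level, with a median of 2.31%. Pooled, the C1q values in ILC2 lay below this range, and whether ILC2 express C1q was not tested. By library the median of the 10 genes was 2.60%, 3.36% and 0.831% in replicates 1, 2 and 3. The C1q counts were unevenly held, and the 5% of ILC2 with the most *C1qa* had 78.6%, 65.5% and 48.5% of them; the part of free RNA and of doublets was not tested. Median depths were 6812 UMIs in macrophages and 7096 in ILC2.

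**Figure D1:**
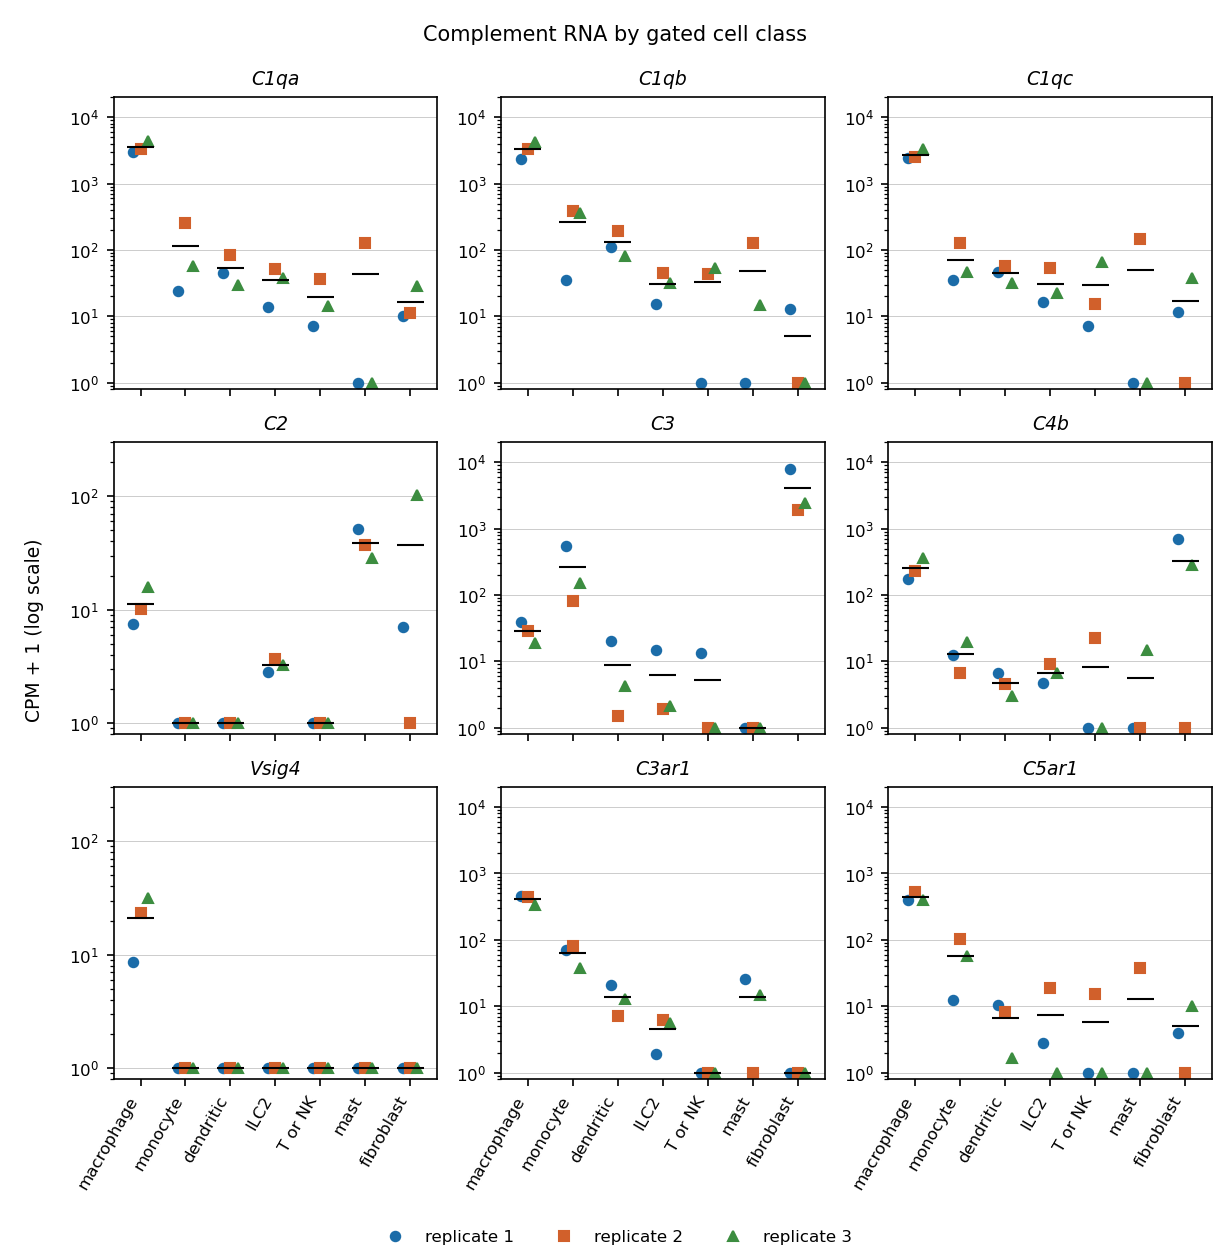
Level of each complement gene in 7 gated cell classes, as CPM + 1 on a log scale. Each point is 1 library with at least 5 cells of the class and the line is the mean; the C1q chains lie at 2372 CPM or more in macrophages only, *C3* lies at 1924 CPM or more in fibroblasts only, and *Vsig4* is at 0 outside macrophages.

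C1q was low in mast cells and T or NK cells too. In mast cells the 7 *C1qa* counts all came from replicate 2, and replicates 1 and 3 had 0. T or NK cells had *C1qa* at 6.25 to 35.6 CPM. Below macrophages, monocyte-like and dendritic cells followed in the order of mean *C1qa*, but the libraries of neighbouring classes overlapped.

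Early components of the cascade other than C1q were divided between macrophages and fibroblasts. *C4b*, which encodes the C4 protein, stood at 172, 231 and 359 CPM in macrophages and was found in 20.0% ± 1.87 of thinned cells (SD, n = 3). In fibroblasts it stood at 699.5 CPM in replicate 1 and 278 in replicate 3. In the 8 fibroblasts of replicate 2 it was at 0 of 99249 UMIs, where 3 counts would be 30.2 CPM. In replicate 3, 1 fibroblast held 18 of the 30 *C4b* counts. The 8 gated glial cells, too few for a comparison, held *C4b* at 2172, 230.2 and 1083 CPM from 38, 4 and 22 counts. The near-identical paralog *C4a* was not analysed here, and no source used here says how reads shared by both genes were assigned, so *C4b* counts could include reads of the paralog.

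*C3*, the central component of all pathways, was highest in fibroblasts among the classes plotted. Fibroblasts held 8000, 1924 and 2438 CPM in replicates 1, 2 and 3, from 42, 8 and 10 cells, and *C3* was found in 61.3% ± 12.0 of thinned fibroblasts (SD, n = 3). In macrophages it stood at 38.0, 27.3 and 17.9 CPM and was found in 2.65% ± 1.05 of thinned cells. Among the 7 classes plotted, all 3 fibroblast libraries lay above every library of the others. The 3 gated mesothelial cells, lining cells left out of the plot for their number, had *C3* at 6196 CPM (562 counts in 2 cells) in replicate 1 and at 3937 CPM (11 counts in 1 cell) in replicate 2. Replicate 1 was the highest and had most of the fibroblasts. In replicate 2, 1 fibroblast held 80 of the 191 *C3* counts, and in replicate 3, 1 held 126 of the 263.

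*C2*, the protease partner of C4, was sparse: 6.52, 9.19 and 15.0 CPM in macrophages, from 166 counts in all. Fibroblasts had 6.03, 0 and 102 CPM, the last from 11 counts in 3 of 10 cells. Mast cells had 50.5, 36.2 and 27.5 CPM, but from 2 counts in each library, and their libraries overlapped with those of fibroblasts. The highest value was 407.9 CPM in the 2 mesothelial cells of replicate 1, from 37 counts. Monocyte-like, dendritic and T or NK cells had 0 counts. Pooled over libraries, 0 counts allow up to 5.50 CPM in monocyte-like cells and 0.619 CPM in dendritic cells.

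The receptor genes *C3ar1* and *C5ar1* were highest in macrophages in every library among the classes plotted. Gated neutrophils, too few to plot, had *C5ar1* at 1644 CPM in replicate 2, from 21 counts in 4 cells. In replicate 3 they had 428.3 CPM from 7 counts in 2 cells, and the 1 neutrophil of replicate 1 had 0 counts. *C3ar1*, the receptor gene for C3a, stood at 457, 435 and 340 CPM in macrophages, and at 68.3, 80.0 and 37.1 CPM in monocyte-like cells. *C5ar1*, the receptor gene for C5a, stood at 401, 520 and 402.5 CPM in macrophages and at 11.4, 103 and 55.7 CPM in monocyte-like cells. At equal depth they were found in 34.3% ± 7.55 and 33.4% ± 2.58 of macrophages (SD, n = 3). In ILC2 they stood at 0.889% and 1.55% of the macrophage level, within or below the range of the 10 other macrophage genes.

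Among the classes plotted, *Vsig4*, the receptor gene for C3 fragments, was found only in macrophages, and in few of them. It stood at 7.60, 22.4 and 30.7 CPM there and was found in 3.92%, 3.64% and 4.65% of unthinned macrophages. Every count came from fewer than 5% of the macrophages of a library, with up to 21 UMIs in 1 cell. The other classes of the plot had 0 counts, which allows a pooled level of up to 0.966 CPM in ILC2, 0.619 in dendritic cells and 3.45 in fibroblasts. The limit was 5.50 CPM in monocyte-like cells, 7.96 in T or NK cells and 17.9 in mast cells. Those of T or NK and mast cells lie above the 7.60 CPM of macrophages in replicate 1, though below the pooled macrophage level of 24.0 CPM. Intervals and limits cover counting error only.

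Macrophages were then compared with monocyte-like cells, the blood-derived cells from which tissue macrophages can be replenished. In the test 7 complement genes were higher in macrophages and *C3* was higher in the monocyte-like cells. Counts were summed per library and class and tested by quasi-likelihood in edgeR with the library as a block, adjusted over all genes tested; log2 fold changes are given ± SE. Replicates 2 and 3 entered, since replicate 1 had 9 monocyte-like cells and the minimum was 10. Of the 9990 genes tested, 9.41% passed an adjusted p of 0.05, 5.99% as higher and 3.42% as lower in macrophages, and 8 of the 9 complement genes did. Their median log2 fold change was 4.54, against 0.20 over all genes tested. *C2* and *Vsig4* had 0 counts in monocyte-like cells and could only come out higher in macrophages, and *Vsig4* is among the 8. Both classes were gated on genes that follow this difference, and p-values of genes that follow a gate are too small.

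*C1qa* stood at 257 and 55.7 CPM in the monocyte-like cells of replicates 2 and 3, against 3352 and 4430 in macrophages, a log2 fold change of 4.54 ± 0.25 or 23.2-fold (adjusted p = 2.25e-66). The fold was 10.2 for *C1qb* and 29.8 for *C1qc*, with log2 fold changes of 3.36 ± 0.23 and 4.90 ± 0.27. *C4b* was 30.4-fold higher in macrophages (log2 4.92 ± 0.49), though only 5 counts were found in monocyte-like cells over the 3 libraries. With 4 profiles the spread is estimated mainly from other genes, which makes these p-values small. With at least 5 cells per profile all 3 libraries entered, and *C1qa* then differed by 5.05 ± 0.45 (edgeR adjusted p = 2.71e-06); this alternative was chosen after seeing the data.

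*C3ar1* and *C5ar1* were 6.34-fold and 5.74-fold higher in macrophages, with log2 fold changes of 2.66 ± 0.33 and 2.52 ± 0.31. *Vsig4* was at 0 in all 46 monocyte-like cells and at least 4.37-fold higher in macrophages, against a floor of 3 counts over the class. It passed in edgeR (adjusted p = 0.00183) and not in DESeq2 (adjusted p = 0.165). *C2* was also at 0 in monocyte-like cells and did not pass (adjusted p = 0.128).

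*C3* stood at 80.0 and 148 CPM in the monocyte-like cells of replicates 2 and 3 and at 27.3 and 17.9 CPM in macrophages. The monocyte-like values rest on 28 and 16 counts, of which 1 cell held 10 in replicate 2 and 11 in replicate 3. The log2 fold change of macrophages over monocyte-like cells was -2.11 ± 0.39, a 4.31-fold lower level (edgeR adjusted p = 3.13e-06). Replicate 1, which did not enter, had 547 CPM in its 9 monocyte-like cells, found in 7 of them, and 38.0 in macrophages. Its highest monocyte-like cell held 9 of the 48 counts. The 8 fibroblast markers summed to 68.3 CPM in the monocyte-like cells of replicate 1, with 3 of the 8 markers at 0; the part of fibroblast RNA in this *C3* value was not tested. In replicates 2 and 3, which gave the test, all 8 fibroblast markers were at 0 in the monocyte-like cells. These markers were used in gating, and cells with many of them could not be gated as monocyte-like. Of 10 fibroblast genes outside these markers, monocyte-like cells of the 3 libraries had 2 counts of *Sparc*, 2 of *Dpt* and 1 of *Clec3b*. The others of the list had 0. With cells thinned to 1000 UMIs the value was -0.99 ± 1.39 and no longer passed (adjusted p = 0.989), and with all 3 libraries at a minimum of 5 cells it was -2.775 ± 0.38 (adjusted p = 0.000218).

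Conventional dendritic cells held less of every complement gene than macrophages. All 9 were higher in macrophages, where 41.6% of 9134 genes passed, 21.4% as higher and 20.1% as lower in macrophages. Among the 9, *C2* and *Vsig4* had 0 counts in dendritic cells and could only come out higher in macrophages. *C1qa* stood at 44.7, 81.8 and 29.0 CPM in dendritic cells, 62.6-fold below macrophages by the fit (log2 5.97 ± 0.33, edgeR adjusted p = 3.87e-07). *C5ar1* was 68.3-fold, *C4b* 57.0-fold, *C1qc* 54.0-fold, *C3ar1* 29.8-fold and *C1qb* 23.0-fold higher in macrophages. With the lead required of a class raised, the log2 fold changes of *C1qa*, *C1qb* and *C1qc* grew to 7.18 ± 0.18, 5.34 ± 0.18 and 6.64 ± 0.20. With thinned cells *C3ar1* was at 5.88 ± 0.51 and *C5ar1* at 5.42 ± 0.47. *C2* and *Vsig4* were at 0 in all 300 dendritic cells and at least 18.2-fold and 38.8-fold higher in macrophages.

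*C3* showed the smallest of these differences, with 19.4, 0.515 and 3.29 CPM in dendritic cells and a log2 fold change of 1.97 ± 0.47 (edgeR adjusted p = 0.00653). Without the library block it was 1.77 ± 0.62 and did not pass (edgeR adjusted p = 0.0569). It was 3.45 ± 0.50 without replicate 1 and 1.285 ± 0.36 without replicate 2, and passed in both (adjusted p = 2.12e-05 and 0.0352). In replicate 1 *C3* was also found in ILC2 at 13.7 CPM and in T or NK cells at 12.5 CPM, against 0.887 and 1.13 CPM in the ILC2 of replicates 2 and 3. Replicate 1 was the library with the most fibroblasts, 42 of 522 cells, and its ILC2 held 10 other fibroblast genes at 23.8 CPM in sum, against 2.66 and 1.13 in replicates 2 and 3. In its T or NK cells these genes summed to 150 CPM. Most of this was 1 gene: over the 3 libraries T or NK cells had 21 counts of *Sparc* and 2 of *Igfbp6*. *Col6a1* and *Dpt* had 1 count each there, and the others of the list had 0. The part of free fibroblast RNA in the low *C3* levels of leukocytes was not tested.

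The *C1qb* RNA of dendritic cells did not keep the proportions of macrophages. *C1qb* made up 57.1% ± 1.85 of C1q counts in dendritic cells, 34.1% ± 3.20 in macrophages and 32.5% ± 2.75 in ILC2 (SD, n = 3 libraries). The dendritic libraries all lay above every macrophage and ILC2 library. Within dendritic cells C1q was held by few cells: the 5% with the most *C1qb* held 79.9%, 87.8% and 79.5% of its counts in replicates 1, 2 and 3. In macrophages that share was 22.2%, 24.1% and 18.0%. In monocyte-like cells *C1qb* made up 55.4% ± 20.7 of C1q counts, from as few as 8 counts in a library.

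**Figure D2:**
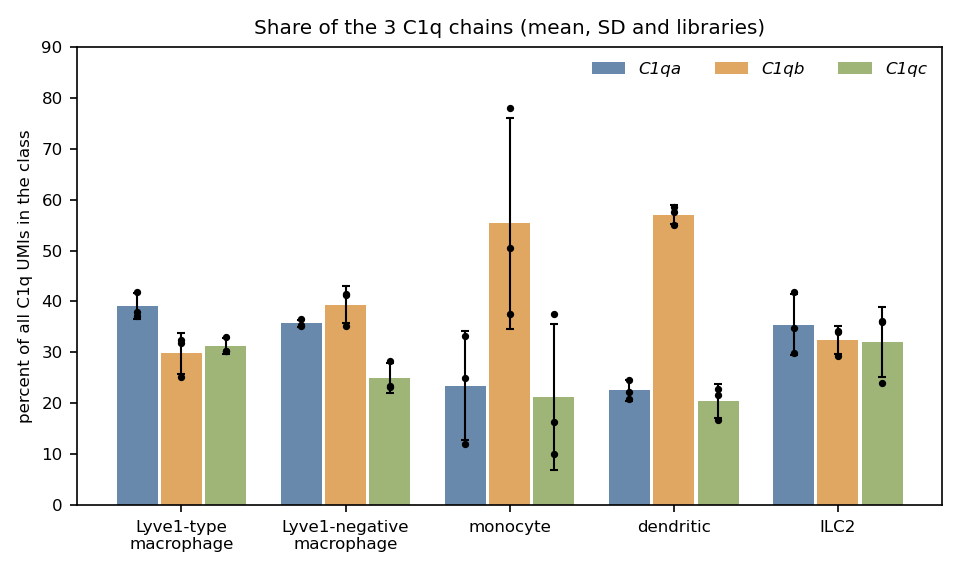
Share of all C1q counts given by each chain, in percent, as the mean over 3 libraries (bars), the SD (error bars) and the libraries (points). *C1qb* gives 57.1% in dendritic cells, 39.3% in Lyve1-negative and 29.8% in Lyve1-type macrophages; the monocyte shares rest on few counts.

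Macrophages themselves were divided by *Lyve1*, *Folr2* and *Timd4*, genes of long-lived resident macrophages. Lyve1-type cells had at least 2 UMIs of these genes together (958 cells) and Lyve1-negative cells had 0 (777 cells). Lyve1-type macrophages held far more *C4b*, *C2* and *Vsig4*, while the levels of the C1q chains and anaphylatoxin receptors differed little. Of 9650 genes 20.4% passed in this comparison, 9.74% as higher and 10.7% as lower in Lyve1-type cells, and 5 of the 9 complement genes did, all 5 higher in Lyve1-type cells. The median log2 fold change of the 9 was 0.43, against 0.00 over all genes tested. The groups were gated on RNA counts of the same cells, so p-values of genes that follow the gate genes are too small here too.

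*C4b* stood at 388, 399 and 640 CPM in the Lyve1-type macrophages of replicates 1, 2 and 3 and at 25.65, 29.6 and 14.6 CPM in Lyve1-negative ones. Each library showed a difference in the same direction and the groups did not come near each other. The log2 fold change was 4.21 ± 0.28, or 18.5-fold (edgeR adjusted p = 4.675e-05). It ranged from 2.54 with thinned cells to 5.22 with at most 5% mitochondrial UMIs and passed in every alternative. Of the 134 *C4b* counts of Lyve1-negative cells, 75 lay in 240 shallow cells without *Ccr2* or *Cx3cr1* counts, with a median of 1328 UMIs. *C4b* stood at 325.6, 137.4 and 68.4 CPM in these 240 cells, which also held 6 of the 9 *C2* counts of Lyve1-negative cells. Whether Lyve1-type RNA was missed in them was not tested.

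*Vsig4* stood at 16.8, 40.03 and 56.7 CPM in Lyve1-type cells, and 343 of its counts were there against 5 in Lyve1-negative cells. The log2 fold change was 5.37 ± 0.48, or 41.3-fold (edgeR adjusted p = 0.0001675). *C2* stood at 15.4, 14.1 and 25.5 CPM against 0, 2.37 and 1.29 CPM, a log2 fold change of 3.39 ± 0.47 or 10.5-fold (adjusted p = 0.00126). Both passed with each library left out in turn, but their size moved. *Vsig4* was at 6.69 ± 0.73 without replicate 2, 4.33 ± 0.51 without replicate 3 and 7.31 ± 0.57 with at least 2000 UMIs. *C2* was at 4.38 ± 0.62 without replicate 2 and ranged from 2.44 to 4.38 over the alternatives. Both remained rare: 8.55% ± 3.19 of Lyve1-type cells had a *C2* count and 7.20% ± 1.31 a *Vsig4* count without thinning (SD, n = 3).

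Monocyte markers moved with this division: the 9 markers summed to 287, 136 and 62.7 CPM in Lyve1-type cells of replicates 1, 2 and 3 and to 1003, 426 and 317 CPM in Lyve1-negative cells, with 4, 1 and 1 of them at 0 against 2, 0 and 0. Their part in the differences was not tested. The 8 fibroblast markers summed to 70.05, 46.5 and 30.9 CPM in Lyve1-type cells of replicates 1, 2 and 3. In Lyve1-negative cells they summed to 54.4, 37.1 and 25.4 CPM. The 10 fibroblast genes of the free RNA check stood at a median of 0.159% of their fibroblast level in Lyve1-type macrophages. Their median in Lyve1-negative ones was 0.131%. *C4b* stood at 88.8% and 4.05% of its fibroblast level. *C3*, which fibroblasts held at a far higher level, was at 0.328% and 0.412%. The part of fibroblast RNA in the differences was not tested. The 8 smooth muscle markers summed to 64.5, 190 and 215 CPM in Lyve1-type cells and to 22.6, 104.5 and 92.1 CPM in Lyve1-negative cells; the part of this in the differences was not tested. In replicate 2 the Lyve1-negative cells were shallower, with a median of 2820 UMIs against 7413.

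**Figure D3:**
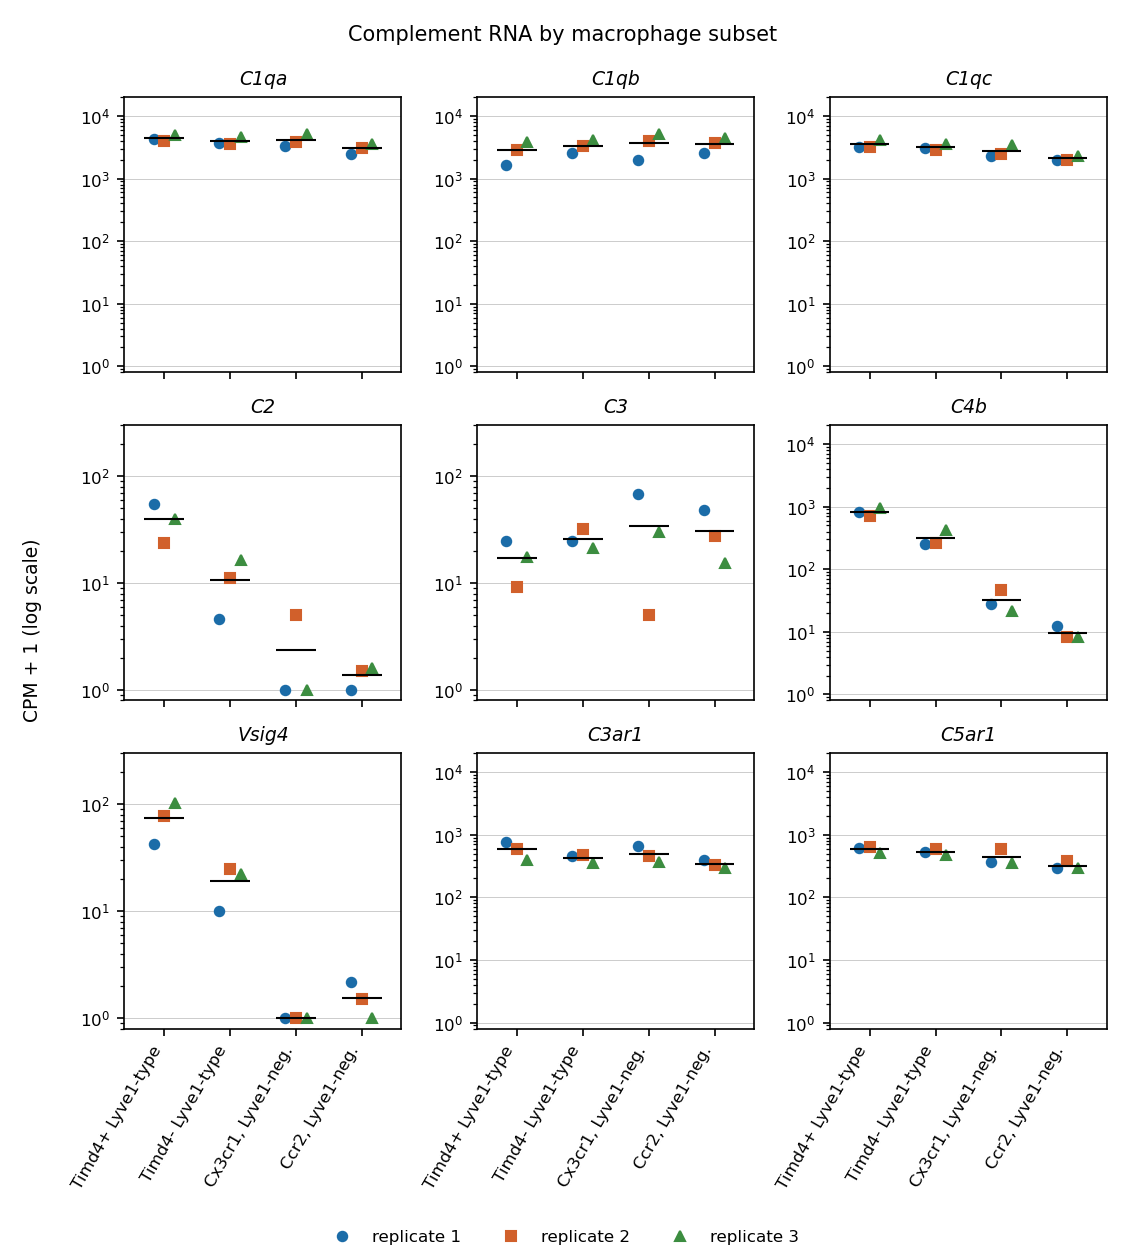
Level of each complement gene in 4 macrophage subsets, as CPM + 1 on a log scale, with 1 point per library and a line at the mean. *C4b*, *C2* and *Vsig4* are highest in Timd4+ Lyve1-type cells in all 3 libraries, while the C1q chains lie at 1662 CPM or more in all subsets.

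*C1qc* and *C5ar1* passed with small differences. *C1qc* stood at 3060, 2981 and 3801 CPM in Lyve1-type against 1973, 2015 and 2586 CPM in Lyve1-negative macrophages, a 1.35-fold difference (log2 0.43 ± 0.09, edgeR adjusted p = 0.0113). *C5ar1* stood at 544, 605 and 485 CPM against 294, 407 and 314 CPM, a 1.45-fold difference (log2 0.53 ± 0.12, adjusted p = 0.0144). For both genes the levels of the groups did not overlap. Without replicate 2 neither passed (adjusted p = 0.192 and 0.128), nor without replicate 3 (adjusted p = 0.0991 and 0.0593), nor without the library block (adjusted p = 0.477 and 0.304), nor with thinned cells (adjusted p = 0.116 and 0.0868).

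*C1qa*, *C1qb*, *C3ar1* and *C3* did not pass. *C1qb* was lower in Lyve1-type cells within each library, at 2324, 3201 and 3987 CPM against 2442, 3560 and 4615, and the log2 fold change of -0.30 ± 0.09 lay just outside the threshold (edgeR adjusted p = 0.0535). It passed without replicate 1, at -0.36 ± 0.07 (adjusted p = 0.000792), with RLE size factors (0.0411) and with subset gates on thinned cells (0.0205), and did not with thinned counts (0.697). *C1qb* thus gave 29.8% ± 4.10 of C1q counts in Lyve1-type and 39.3% ± 3.63 in Lyve1-negative cells (SD, n = 3). The log2 fold changes were 0.24 ± 0.11 for *C1qa*, 0.25 ± 0.11 for *C3ar1* and -0.44 ± 0.22 for *C3* (adjusted p = 0.173, 0.166 and 0.2105).

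Within Lyve1-type macrophages the 342 cells with a count of *Timd4*, a receptor gene for dying cells, carried the most *C4b*. They held 825, 701 and 934 CPM in replicates 1, 2 and 3, against 254, 264 and 415 CPM in the 616 cells without one. *Vsig4* stood at 41.8, 76.8 and 103 CPM against 9.15, 23.6 and 21.2 CPM, and *C2* at 53.8, 22.8 and 38.7 CPM against 3.66, 10.2 and 15.4 CPM. For all 3 genes the Timd4+ libraries lay above the Timd4- ones. *C1qa* differed less, at 4310, 3916 and 4986 CPM against 3759, 3553 and 4587. These values are a description with no test. Among all thinned macrophages *C4b* was found in 45.4% ± 2.03 of those with a *Timd4* count and in 18.4% ± 1.88 of those without (SD, n = 3).

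Among Lyve1-negative macrophages, cells with *Ccr2*, a chemokine receptor gene of cells recently derived from monocytes, were compared with cells that had *Cx3cr1* and no *Ccr2*. The 430 Ccr2 cells and 107 Cx3cr1 cells each carried *C1qb* with overlapping libraries (2565, 3663 and 4518 against 1978, 3932 and 5099 CPM). Of 7 complement genes tested 2 passed, both lower in Ccr2 cells, where 3.04% of 6374 genes passed, 1.33% as higher and 1.71% as lower. *C1qa* stood at 2470, 3060 and 3601 CPM in Ccr2 cells and 3334, 3863 and 5103 in Cx3cr1 cells (log2 -0.43 ± 0.11, edgeR adjusted p = 0.0291). *C4b* stood at 11.6, 7.27 and 7.21 CPM against 27.1, 44.7 and 20.65 CPM (log2 -1.95 ± 0.49, adjusted p = 0.0291), from 36 and 23 counts. The 9 monocyte markers summed to 1089, 510 and 424 CPM in Ccr2 cells and to 0, 40.7 and 18.6 CPM in Cx3cr1 cells, where 9, 6 and 5 of them were at 0. The 10 macrophage markers summed to 10240, 7901 and 10390 CPM against 16030, 15400 and 27150 CPM. Their part in the differences was not tested.

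Neither gene passed without the library block, without replicate 2, without replicate 3, in DESeq2 or with a raised lead for the classes. For *C1qa* those adjusted p-values were 0.937, 0.327, 0.409, 0.785 and 0.081, and for *C4b* they were 0.128, 0.575, 0.132, 0.246 and 0.0859. *C4b* also missed the threshold with at least 2000 UMIs and *C1qa* without the filter on low counts (adjusted p = 0.0556 and 0.438). *C1qc*, *C3ar1* and *C5ar1* had log2 fold changes of -0.38 ± 0.12, -0.52 ± 0.18 and -0.43 ± 0.18 and did not pass (adjusted p = 0.106, 0.139 and 0.265). *C1qb* was level at 0.02 ± 0.12 and *C3* at -0.15 ± 0.47. *C2* and *Vsig4* had 3 counts or fewer in these cells and were not tested.

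Fibroblasts were compared with macrophages in replicates 1 and 3, which had at least 10 fibroblasts each. Of 9544 genes 34.5% passed, 17% as higher and 17.5% as lower in fibroblasts. All 8 complement genes tested passed, 3 higher and 5 lower in fibroblasts. Among them *C3ar1* had 0 counts in fibroblasts and could only come out lower there. *C3* was 169-fold higher in fibroblasts (log2 7.401 ± 0.434, edgeR adjusted p = 5.19e-62). It was 6.87 ± 0.38 with replicate 2 included through a minimum of 5 cells (adjusted p = 3.32e-11). The C1q chains were lower in fibroblasts, with log2 fold changes from -7.229 for *C1qc* to -8.003 for *C1qb*.

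*C2* and *C4b* were higher in fibroblasts by 1.675 ± 0.62 and 0.96 ± 0.39 on the log2 scale (edgeR adjusted p = 0.0236 and 0.0386), but neither passed in every alternative. With replicate 2 included *C2* differed by 1.23 ± 0.65 (adjusted p = 0.158) and *C4b* by -0.08 ± 0.69 (adjusted p = 0.943), in the opposite direction. In DESeq2 the adjusted p-values were 0.526 and 0.632. *C3ar1* was at 0 in the 60 fibroblasts and at least 116-fold lower than in macrophages, though in DESeq2 its adjusted p was 0.126, *Vsig4* at least 6.97-fold lower, and *C5ar1* had 3 counts in fibroblasts.

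Free fibroblast RNA was checked in macrophages in the same way. The 10 fibroblast genes stood in macrophages at 0.0808% to 0.224% of their fibroblast level, with a median of 0.148%. *C4b* stood at 48.8% and *C2* at 65.4% of the fibroblast level, far above that range. *C3* in macrophages stood at 0.373%, above the highest of the 10 genes but within 2 times of it. In ILC2 *C2* and *C3* stood at 20.0% and 22.2% of their low macrophage levels, from 7 and 17 counts, 15 of the latter in replicate 1, and *C4b* at 2.09%. The *C3* counts of macrophages were unevenly held, with 48.6%, 72.3% and 77.3% of them in the 5% of macrophages with the most.

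**Figure D4:**
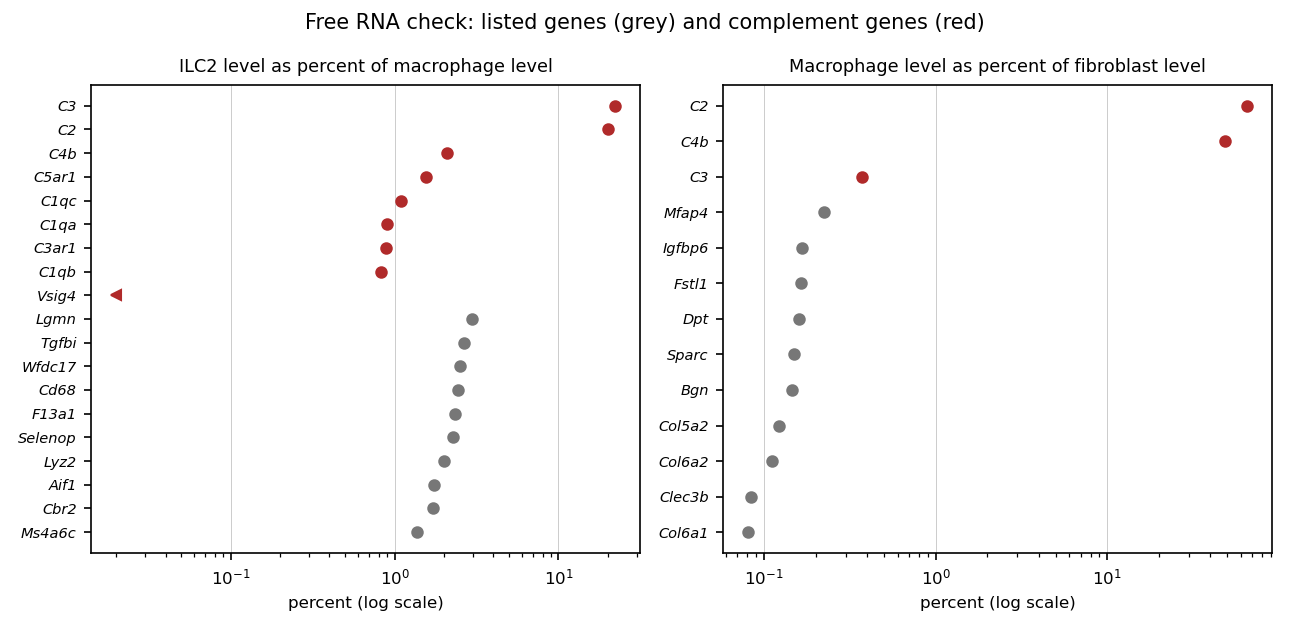
Level in ILC2 as percent of the macrophage level, and level in macrophages as percent of the fibroblast level, pooled over libraries, on a log scale. Grey points are the 10 genes of each free RNA check and red points are complement genes. In ILC2 the C1q chains lie below the macrophage genes (1.37% to 2.97%), while *C2* and *C3* lie at 20.0% and 22.2%. In macrophages *C4b*, *C2* and *C3* lie above the fibroblast genes (0.0808% to 0.224%), *C3* at 0.373%. The arrow marks *Vsig4* at 0.

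**Figure D5:**
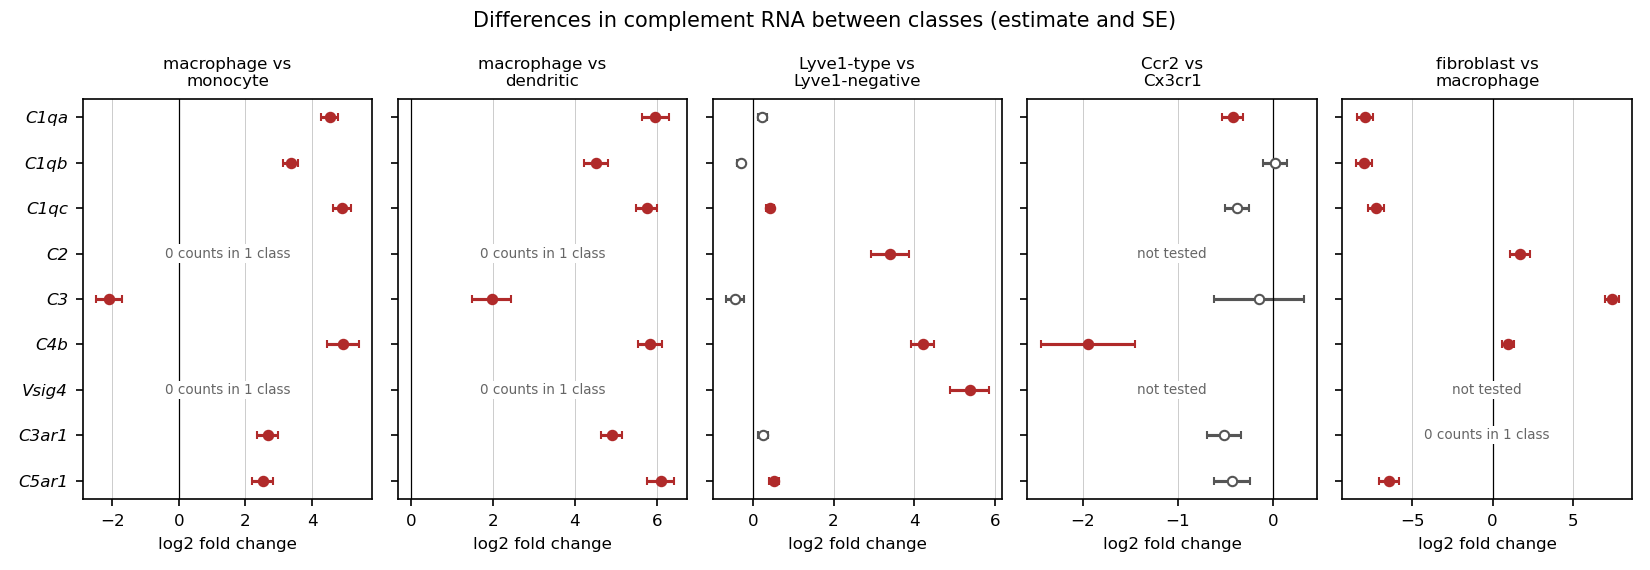
Log2 fold change of each complement gene, first class over second, in the 5 comparisons, with the SE. Filled red points passed an adjusted p of 0.05 in edgeR and open points did not; genes with 0 counts in 1 class or not tested are written out, and the axes differ between panels.

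Other genes of the cascade were counted from lists of 44 genes, of which 43 were in the matrices. In Lyve1-type against Lyve1-negative macrophages 14 were tested, 7 were higher and 2 lower. Of all genes tested there, 9.74% passed as higher and 10.7% as lower. *C6*, a gene of the membrane attack complex, was higher, with 152 counts in Lyve1-type cells against 1 (edgeR adjusted p = 0.000184). The lectin pathway genes *Fcna* (ficolin-A) and *Colec12* (a scavenger receptor with a collectin domain) were higher by 4.91 ± 0.28 and 3.70 ± 0.33 on the log2 scale. Of the regulators, *Cd55*, which speeds the decay of the C3 convertase, was higher by 4.11 ± 0.53. *Cfp* (properdin, which stabilises the alternative pathway convertase) and the C1 protease gene *C1ra* were also higher. *Itgax* and *Itgb2*, chains of the integrin receptor CR4, were lower, with log2 fold changes of -2.79 ± 0.33 and -0.47 ± 0.12.

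*Fcna* stood at a mean of 482 CPM in Lyve1-type and 14.7 CPM in Lyve1-negative macrophages. Between Ccr2 and Cx3cr1 macrophages 9 listed genes were tested, and *Cfp* was higher in Ccr2 cells by 1.54 ± 0.23 on the log2 scale (edgeR adjusted p = 0.000238). Against monocyte-like cells 5 of 14 were higher in macrophages and 4 lower, among them *Cd93* higher by 2.42 ± 0.35 and *Itgb2* lower, at -1.29 ± 0.26. Over all genes tested 5.99% passed as higher and 3.42% as lower. Against dendritic cells 8 of 14 were higher and 3 lower, where 21.4% of all genes tested passed as higher and 20.1% as lower.

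Fibroblasts held the C1 proteases and their inhibitor. Of 17 listed genes tested against macrophages 7 were higher in fibroblasts and 7 lower. The shares over all genes tested were 17% higher and 17.5% lower. Among the listed genes *Cd93* and *C5ar2* had 0 counts in fibroblasts and could only come out lower there. *Serping1*, the C1 inhibitor gene, was higher by 10.62 ± 0.54 on the log2 scale and stood at a mean of 2015 CPM in fibroblasts against 1.19 in macrophages. *C1s1* and *C1ra*, the proteases that associate with C1q, were higher by 9.07 ± 0.52 and 6.195 ± 0.43. The regulators *Clu* (clusterin) and *Cd55* were higher by 6.69 ± 0.63 and 5.14 ± 0.44, and *Cfb*, the alternative pathway protease gene, by 3.86 ± 0.64. *Cfp* and *Fcna* were lower in fibroblasts, with 3 counts and 1 count there against 5435 and 4118 in macrophages.

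The genes whose pattern was most like each complement gene were found by Pearson's r of log2(CPM + 1) over 19 class and library profiles, among 8132 genes, as a description. Profiles of a library share its depth and preparation. *C1qa* was most like *C1qc* (r = 0.972), then *C5ar1* (0.901) and *Csf1r* (0.888), the latter a gate gene. *C1qb* was most like *Ctsc* (0.912) and *Fcgr3* (0.909), and neither other C1q chain was among its 3 closest. *C3ar1* was most like *Trem2* (0.942), *C4b* like *Etv1* (0.873), *C2* like *Cgrrf1* (0.851), and *C3* like *Amotl2* (0.941). *Vsig4* was under the minimum mean of 10 CPM.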

How the data were processed

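The authors deposited raw UMI counts, 1 matrix of genes by barcodes for each of the 3 libraries; they were made with Cell Ranger 3.1 and build mm10, per the submitters' processing notes. The file headers name software version 3.0.0 in replicate 1, unlike 3.1.0 in the others. No source used here gives the annotation. The libraries held 6777422, 13336484 and 11017170 UMIs.

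Cells with at least 1000 UMIs and at most 15% mitochondrial UMIs were kept. A cell went to the class with the largest share of its markers found, at least 0.4 and 0.1 above the next class (0.2 with the raised lead). Monocyte-like cells had at least 3 monocyte markers and at most 5 of 10 macrophage markers, a gate set after the marker shares were seen and without complement genes. Doublets were left in, and removed in an alternative by scrublet scores (scanpy 1.11.5, 102 cells). Counts were summed per library and class with at least 10 cells and tested two-sided by quasi-likelihood F-test in edgeR 4.0.16 (filterByExpr, TMM, library as block, Benjamini-Hochberg over all genes tested); DESeq2 1.42.0 was an alternative. The block was planned because each library gives both classes. All compared classes were gated on RNA counts of the same cells, so p-values of genes that follow a gate are too small. Levels are CPM over the summed counts. Detection was compared after thinning each cell to 1000 UMIs, with exact Clopper-Pearson 95% intervals in the tables; a count of 0 allows up to 3 counts. The tests were tried on simulated data. Genes named are the 9 complement genes, up to 4 called genes of each other complement list with the largest change, and the 3 genes most like each complement gene. A result on the lists is not reported here. The genes and lists were chosen with earlier results of these data known. Promoter windows are from RefSeq (GRCm38.p6), gene positions from a GRCm38 annotation, the build also called mm10.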

Additional observations from a re-analysis of the deposited data

Results flagged for a closer look

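Barcodes under 1000 UMIs entered none of the comparisons. The 796 such barcodes with at most 15% mitochondrial UMIs, with a median of 859.5 UMIs, held all 9 complement genes when pooled over libraries, each above the limit that a count of 0 allows. *C1qa* stood at 1356 CPM, *C1qb* at 1710 CPM and *C1qc* at 1351 CPM there. *C4b* stood at 250.9 CPM, *C5ar1* at 278.6 CPM and *C3ar1* at 218.6 CPM. *C3* stood at 90.81 CPM from 59 counts, *C2* at 13.85 CPM from 9 counts and *Vsig4* at 12.31 CPM from 8 counts. Most of these barcodes, 658, came from replicate 2. What cells or free RNA they hold was not tested.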

How the results depend on the processing

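Across the alternatives 449 values kept their direction and side of the threshold or moved by less than the spread, 35 no longer passed, 7 passed newly and 9 changed sign. Of the 9 complement genes, 5 passed between Lyve1-type and Lyve1-negative macrophages, where 1970 of 9650 genes passed. With no replicate block 3 did (559 of 9650 genes), and with thinned cells 2 did, where fewer genes were tested (593 of 4819). With each replicate left out 3 to 6 did. Of all genes, 2951 of 10015 passed without replicate 1, 607 of 9083 without replicate 2 and 858 of 8994 without replicate 3. Between Ccr2 and Cx3cr1 macrophages 2 passed, where 194 of 6374 genes did. The count of 2 became 0 with no replicate block (38 of 6374 genes) and 0 in DESeq2 (57 of 6374). It became 0 with a raised lead (128 of 6171) and 0 with thinned cells (3 of 1000). It was 1 without the filter on low counts (275 of 14673). With each replicate left out it was 0 to 3. Of all genes, 256 of 7581 passed without replicate 1, 112 of 6670 without replicate 2 and 51 of 5989 without replicate 3. Between fibroblasts and macrophages 8 became 5 in DESeq2, where the genes that passed fell from 3289 to 1623 of 9544. Genes found in over 50% of macrophages numbered 3 at 1000 UMIs, and 5 at 2000 UMIs or unthinned. *C1qb* in Ccr2 against Cx3cr1 cells turned from 0.02 to -0.0646 with no replicate block, -0.16 without replicate 1, -0.17 at 2000 UMIs, -0.17 at 5% mitochondrial UMIs and -0.12 with gates on thinned cells; leaving out each replicate gave -0.16 to 0.136. *C3* there turned from -0.15 to 0.11 with no replicate block, 0.69 without replicate 3 and 0.0514 at 2000 UMIs; leaving out each replicate gave -0.769 to 0.69. *C4b* in fibroblasts turned to -0.0805 with at least 5 cells per profile. The causes were not tested. Macrophages against monocyte-like cells could not be fitted at the minimum of 10 cells without replicate 2 or 3, at 5% mitochondrial UMIs, without doublets, with the raised lead or without shared barcodes, and fibroblasts not without replicate 1 or 3. With at least 5 cells, chosen after seeing the data, all 7 complement genes tested passed against monocyte-like cells in each of 4 such fits (*C2* and *Vsig4* were under the filter), those without shared barcodes and without doublets included. Of all genes, 749 of 7998 passed with no other change and 673 of 7986 without shared barcodes. Without doublets 725 of 7993 passed, and with the raised lead 345 of 7670. Without shared barcodes 6 complement genes passed between Lyve1-type and Lyve1-negative cells, the added one being *C1qb* (adjusted p = 0.0431), as with RLE size factors and with gates on thinned cells (6 each), and the counts of the other comparisons fitted were as before. Between these Lyve1 groups 1885 of 9490 genes passed without shared barcodes and 1981 of 9650 with RLE size factors. With gates on thinned cells 2463 of 9968 genes did. The few monocyte-like cells and fibroblasts limit precision, and gates on *Lyve1*, *Ccr2* and *Cx3cr1* counts depend on depth.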
